A study of Mus musculus with 4 samples.

Results

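The genes described here are 10 transcripts that mark the macrophages of the mouse embryo: C1qa, C1qb, C1qc, Csf1r, Cx3cr1, Mrc1, Adgre1, Tyrobp, Fcer1g and Cd68. They were taken by symbol from count tables that list 49997 genes, and all 10 were found. Their counts were read in 4 libraries made from cultured pieces of the AGM (aorta-gonad-mesonephros), the embryonic tissue around the dorsal aorta in which haematopoietic stem cells first appear. The study asks how mitochondrial activity bears on the maturation of these stem cells. In every group the explants came from C57BL/6J mice and were kept for 48 hours on a membrane filter in MyeloCult medium with hydrocortisone, a glucocorticoid. The untreated group (2 libraries) had no further agent named, and the CCCP group (2 libraries) had 5 µM CCCP, an uncoupler that lets protons leak back across the inner mitochondrial membrane, for the same 48 hours. The growth protocol gives the embryos as day 10.5 and day 11.5, the series design as day 10.5 alone, and the number of embryos behind a library is not given in the sources used here. No label says that libraries of a group came from separate litters or cultures, so the p-values below measure the spread between these libraries, which may be technical.

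Macrophages are phagocytes that reach the embryo early, first from the yolk sac, and settle in most tissues, the AGM among them, before definitive blood stem cells exist. Their growth and survival depend on CSF1 acting through the receptor kinase CSF1R, and they clear dying cells and debris through lectin, scavenger and complement receptors. C1q, the recognition part of the classical complement pathway, is made largely by macrophages and is built from A, B and C chains that assemble in equal numbers, each encoded by a gene of its own. TYROBP (DAP12) and the Fc receptor gamma chain FCER1G are small adaptors that carry the signal of many myeloid receptors inwards.

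The libraries held between 37360968 and 48827826 counted reads, and the 10 genes had between 173 and 2660 counts in each library, far above a floor of 3 counts. Levels are given as CPM, the count of a gene scaled to library size, with TMM factors that balance the bulk of genes between libraries. All labels name stem cells as the cell type, while the transcripts were those of whole explant tissue: the mesenchymal collagen Col3a1 stood between 1305 and 2302 CPM, the endothelial cadherin Cdh5 between 134 and 176 CPM and the stem cell factor receptor Kit between 47.6 and 63.2 CPM. These marker genes were chosen after their values were seen. Because the RNA is from bulk tissue, fewer macrophages and less of a transcript per macrophage cannot be told apart. Over all 19837 genes that passed the filter on low counts, 0% differed between CCCP and untreated at an adjusted p-value under 0.05 (edgeR, quasi-likelihood test, p-values adjusted by Benjamini-Hochberg).

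No member differed between the groups at that threshold (0 of 10 in edgeR, where 2 of 10 had an unadjusted p under 0.05, and 0 of 10 in DESeq2, which called 2.99% of all genes). The 3 C1q genes were higher in both CCCP libraries than in both untreated libraries, by 1.64-fold for C1qa, 1.50-fold for C1qb and 1.25-fold for C1qc. The groups overlapped for the other 7 members, whose fitted log2 fold changes lay between -0.32 and 0.22. Over the 10 members the median log2 fold change was 0.15, with 6 higher and 4 lower, beside a median of -0.01 over all genes tested. The count of 3 of 10 members above both untreated libraries stands beside 24.0% of all genes tested, and the 2 members higher at an unadjusted p under 0.05 stand beside 5.45% of them.

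**Figure D1:**
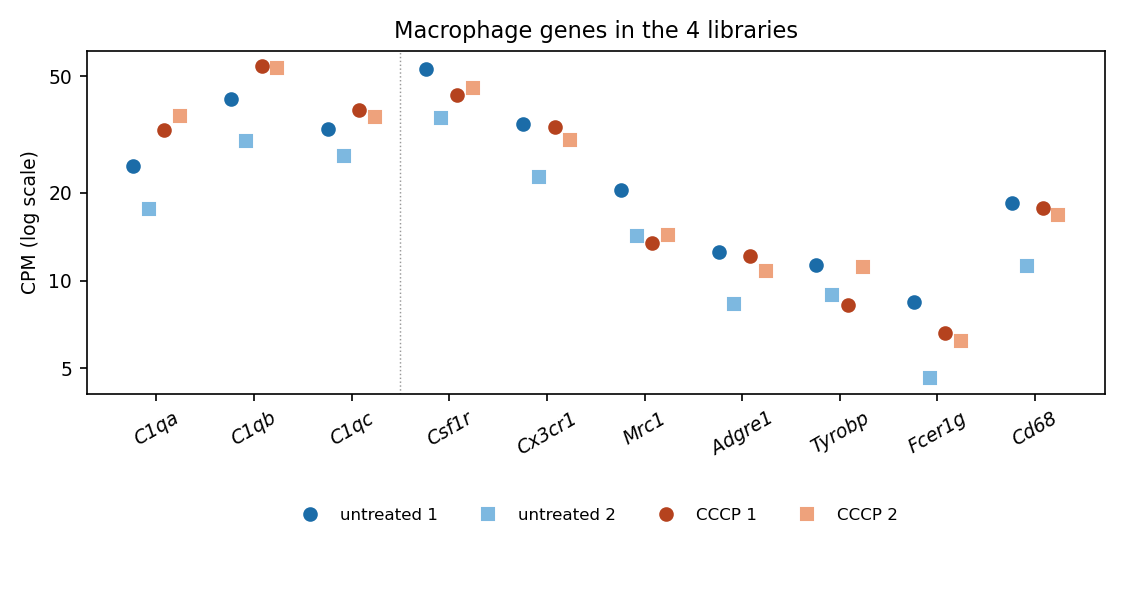
CPM (log axis) of each of the 10 genes in the 4 libraries, 1 symbol per library, untreated in blue and CCCP in red, circles for replicate 1 and squares for replicate 2. Left of the dotted line, both CCCP libraries lie above both untreated libraries for C1qa, C1qb and C1qc; right of it, the groups overlap for all 7 genes and untreated replicate 1 is the highest library in each.

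The C1q genes sit side by side on chromosome 4, all on the minus strand, in the order C1qb (136880126 to 136886200), C1qc (136889801 to 136892936) and C1qa (136895916 to 136898844) on mm10, a cluster of 18719 bases with gaps of 3600 and 2979 bases and with no other annotated gene inside it. Their summed exon lengths are close, at 1104, 1127 and 1082 bases. The starts of C1qb and C1qc are shown because these neighbours were both higher in the CCCP libraries. C1qa was higher too but had no promoter entry, so its start is not shown. Each run covers 250 bases before to 50 bases after the annotated start (RefSeq, GRCm38.p6, minus strand, chr4:136886151-136886450 for C1qb and chr4:136892865-136893164 for C1qc), with the letters GAGGAA, a purine-rich core of sites bound by the macrophage factor PU.1 (Spi1), in capitals on either strand.
C1qb: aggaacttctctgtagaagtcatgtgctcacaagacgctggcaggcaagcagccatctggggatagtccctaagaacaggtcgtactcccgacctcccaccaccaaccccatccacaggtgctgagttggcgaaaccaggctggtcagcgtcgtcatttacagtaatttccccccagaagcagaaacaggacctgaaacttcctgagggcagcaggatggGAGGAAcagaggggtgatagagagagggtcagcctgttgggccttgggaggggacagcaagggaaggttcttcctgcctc
C1qc: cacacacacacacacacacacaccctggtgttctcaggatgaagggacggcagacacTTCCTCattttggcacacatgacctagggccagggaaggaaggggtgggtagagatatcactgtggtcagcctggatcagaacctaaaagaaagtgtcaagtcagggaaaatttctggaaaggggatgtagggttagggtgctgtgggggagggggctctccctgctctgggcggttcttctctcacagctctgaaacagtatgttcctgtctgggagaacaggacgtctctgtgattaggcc
The C1qb run holds GAGGAA on its own strand, beginning 30 bases before its annotated start. The C1qc run holds it on the opposite strand (as TTCCTC), beginning 193 bases before its annotated start. That start is the outer end of the gene span given above for C1qb, but lies a little inside the span for C1qc. The longer word GAGGAAGT, which contains the shorter, occurs in the C1qc run alone of these 2. Of 6 members with a promoter entry, 4 held GAGGAA (C1qb, C1qc, Cd68 and Mrc1) and 2 did not (Cx3cr1 and Fcer1g). Over all 32851 promoter runs of the same length, 28.3% held GAGGAA and 3.20% held GAGGAAGT on either strand. A match of letters is a description and shows no binding.

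C1qa, which encodes the A chain, stood at 24.6 and 17.6 CPM in untreated replicates 1 and 2 and at 32.7 and 36.4 CPM in CCCP replicates 1 and 2. Both CCCP libraries thus lay above both untreated libraries, and the untreated libraries lay nearly as far apart as the higher of them lay from the lower CCCP library. The group means were 21.1 ± 4.99 and 34.6 ± 2.65 CPM (SD, n = 2 in each group), and the fitted log2 fold change was 0.71 ± 0.196 (SE; edgeR adjusted p 0.241).

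C1qb, which encodes the B chain, stood at 41.8 and 30.1 CPM untreated and at 54.1 and 53.6 CPM under CCCP. The CCCP libraries were nearly equal and both were high. Its means were 36.0 ± 8.24 and 53.9 ± 0.354 CPM (SD, n = 2), with 0.58 ± 0.175 (SE) as the log2 fold change (edgeR adjusted p 0.264). C1qc, which encodes the C chain, had 33.1 and 26.6 CPM untreated and 38.2 and 36.3 CPM with CCCP. Its groups did not overlap either, but the lower CCCP library was close to the higher untreated library. Its log2 fold change was 0.32 ± 0.153 (SE; edgeR adjusted p 0.391). Without a filter on low counts, edgeR called C1qa (adjusted p 0.00672) and C1qb (adjusted p 0.0162) but not C1qc (adjusted p 0.428), and that fit called 0.673% of 32261 genes as higher. With the replicate number as a block, edgeR also called C1qa (adjusted p 0.013) and C1qb (adjusted p 0.0129), where 3.80% of all genes were called as higher, but no label ties same-numbered libraries together.

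Per kilobase of exon, C1qb was the most abundant of the 3 chains in all 4 libraries. The level of C1qa over that of C1qb was 0.601 and 0.595 untreated and 0.617 and 0.694 under CCCP. The level of C1qc over that of C1qb was 0.777 and 0.866 untreated and 0.692 and 0.664 with CCCP, lower in both CCCP libraries. The C chain transcript was thus lower relative to its partner in the CCCP libraries although its own level was higher there. The untreated ratios lay slightly farther apart than the lower of them lay from the higher CCCP ratio, and no test was run on them.

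A ratio taken within a library does not depend on library scaling, so the C1q genes were set against the other 7 members, a split made after the values had been seen and given with no test. The summed CPM of C1qa, C1qb and C1qc was 99.6 and 74.4 untreated and 125.0 and 126.4 under CCCP, while that of the other 7 members was 158.6 and 105.7 untreated and 134.9 and 135.0 with CCCP. The ratio of the sums was 0.628 and 0.703 untreated (mean 0.665 ± 0.0535, SD, n = 2) and 0.927 and 0.936 with CCCP (mean 0.932 ± 0.00667, SD, n = 2). The C1q genes thus made up 38.6% and 41.3% of the CPM of the 10 genes without treatment and 48.1% and 48.4% under CCCP. The untreated libraries, which differed by 1.50-fold in the sum of the other 7 genes, differed by 1.12-fold in this ratio.

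**Figure D2:**
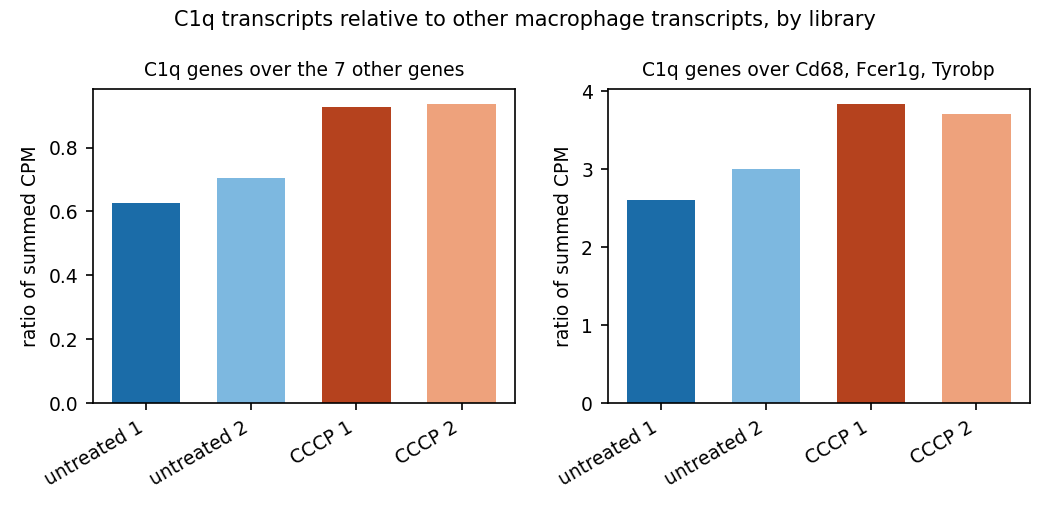
Ratio of the summed CPM of C1qa, C1qb and C1qc to that of the 7 other members (left) and to that of Cd68, Fcer1g and Tyrobp (right), 1 bar per library from 0. The CCCP bars stand at 0.927 and 0.936 (left) and at 3.83 and 3.70 (right), above the untreated bars at 0.628 and 0.703 (left) and at 2.61 and 3.002 (right).

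Exon length goes with the log2 fold change across all genes in these data (Spearman's rho -0.35, across genes, which are not independent replicates). Among tested genes with under 1500 bases of exon, the median log2 fold change was 0.21 over 3410 genes, and 30.7% of them were higher in both CCCP libraries. The C1q genes belong to this length class, and so do Tyrobp (575 bases), Fcer1g (658 bases) and Cd68 (1247 bases), whose log2 fold changes were -0.07, -0.03 and 0.22. Against these 3 short members alone, the C1q sum stood at 2.61 and 3.002 untreated and at 3.83 and 3.70 under CCCP. Once the trend on exon length was taken out of each library, the log2 fold changes were 0.49 for C1qa, 0.36 for C1qb and 0.11 for C1qc, with edgeR adjusted p-values of 0.462, 0.546 and 0.85. GC content also went with the log2 fold change (Spearman's rho 0.37, across 17929 genes). It was 59.5%, 57.4% and 56.6% for C1qa, C1qb and C1qc, and 54.6%, 53.9% and 53.7% for Tyrobp, Fcer1g and Cd68. The short members are thus not matched to the C1q genes in GC content. With the GC trend removed, a step chosen after seeing the data, the C1q values were 0.53, 0.41 and 0.15 (edgeR adjusted p 0.452, 0.493 and 0.728).

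**Figure D3:**
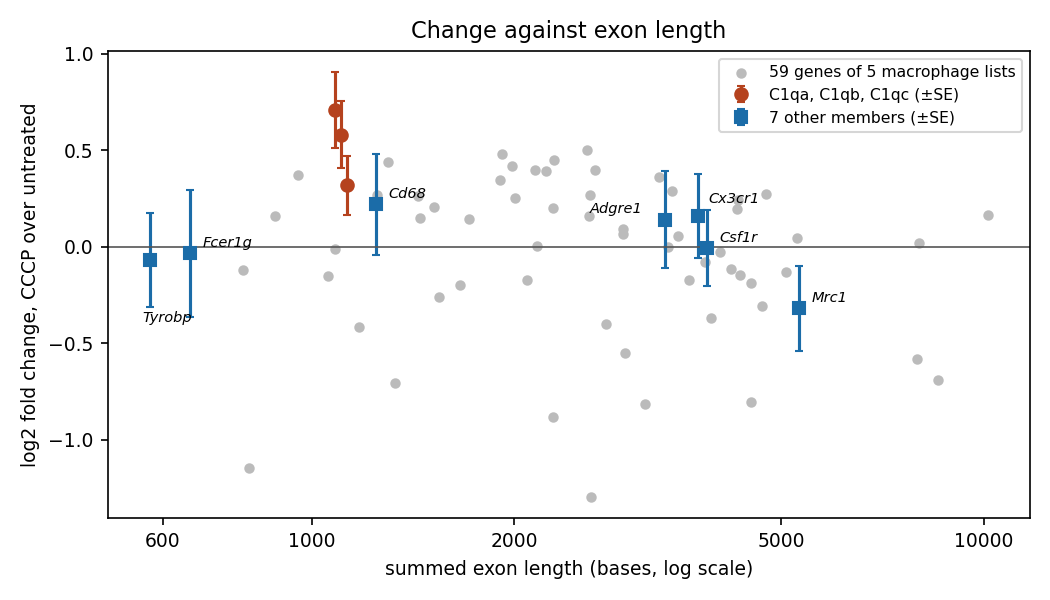
Log2 fold change (CCCP over untreated) against summed exon length in bases (log axis) for the C1q genes (red, ±SE), the 7 other members (blue, ±SE) and 59 tested genes of 5 macrophage lists (grey). The C1q genes lie between 0.32 and 0.71, above the other short members Tyrobp (-0.07), Fcer1g (-0.03) and Cd68 (0.22).

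Csf1r (chromosome 18, 61105572 to 61131139), the receptor for CSF1 and interleukin-34, stood at 53.1 and 35.9 CPM untreated and at 43.2 and 45.5 CPM under CCCP. Both CCCP libraries lay between the untreated libraries. Its log2 fold change was -0.01 ± 0.198 (SE; edgeR adjusted p 0.993). Leaving out untreated replicate 1 gave 0.31, and leaving out untreated replicate 2 gave -0.24. Of its ligands, Csf1 had 16.27 and 13.8 CPM untreated and 17.6 and 16.34 CPM with CCCP, and Il34 was near the floor with 6 to 13 counts per library. For Csf1 both CCCP libraries lay above both untreated ones, the nearest pair by a narrow gap, and the log2 fold change was 0.17 (edgeR adjusted p 0.667). Per kilobase of exon the receptor transcript was above that of Csf1 in every library, by 3.72 and 2.96 times untreated and 2.80 and 3.18 times with CCCP.

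Cx3cr1 (chromosome 9, 120048683 to 120068296), the receptor for the chemokine fractalkine and a marker of yolk sac derived macrophages and microglia, had 34.4 and 22.6 CPM untreated and 33.5 and 30.2 CPM with CCCP. Both CCCP values again lay between the untreated ones, and the log2 fold change was 0.16 ± 0.219 (SE; edgeR adjusted p 0.756). Leaving out untreated replicate 2 gave -0.09, and leaving out untreated replicate 1 gave 0.51. The exons of Cx3cr1 share 92 bases with a predicted gene of the opposite strand, and reads touching both were assigned to neither. The ligand gene Cx3cl1 had 3.75 and 2.41 CPM untreated and 3.66 and 2.70 CPM with CCCP, with overlapping groups (log2 fold change 0.05, edgeR adjusted p 0.962).

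Mrc1 (chromosome 2, 14229414 to 14332023), the mannose receptor CD206, which tissue macrophages and also sinusoidal and lymphatic endothelium carry, had 20.4 and 14.2 CPM untreated and 13.5 and 14.4 CPM with CCCP. Untreated replicate 1 was high and the other 3 libraries were alike. Mrc1 had the lowest log2 fold change of the members, at -0.32 ± 0.222 (SE; edgeR adjusted p 0.527). The value was -0.02 without untreated replicate 1 and 0.08 with the trend of GC content removed. Of 8 endothelial and sinusoidal genes read beside Mrc1, 1 was higher and 7 were lower, 4 of them under both untreated libraries (24.8% of all genes were). Their median log2 fold change was -0.26, or -0.42 without untreated replicate 1. Stab1 (0.02), Cdh5 (-0.18), Pecam1 (-0.19) and Cd34 (-0.20) had overlapping groups, and Kdr (-0.31), Tek (-0.75), Stab2 (-0.74) and Lyve1 (-1.29) did not. Lyve1 and Stab2, genes of sinusoidal and lymphatic endothelium, were named after their values were seen. Lyve1, also found on some tissue macrophages, had 6.97 and 6.49 CPM untreated and 1.96 and 3.55 CPM with CCCP, and Stab2 had 5.63 and 5.83 CPM untreated and 3.13 and 3.72 CPM with CCCP. Their part in the level of Mrc1 was not tested.

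Adgre1 (chromosome 17, 57358581 to 57483529), which encodes the macrophage antigen F4/80, had 12.5 and 8.31 CPM untreated and 12.1 and 10.8 CPM with CCCP. Both CCCP values lay between the untreated ones, with a log2 fold change of 0.14 ± 0.251 (SE; edgeR adjusted p 0.818). Leaving out untreated replicate 2 gave -0.10, and leaving out untreated replicate 1 gave 0.47. Cd68 (chromosome 11, 69664213 to 69666170), a glycoprotein of the late endosomes and lysosomes of phagocytes, had 18.4 and 11.2 CPM untreated and 17.8 and 16.8 CPM with CCCP. Untreated replicate 2 was the low library. Its log2 fold change was 0.22 ± 0.26 (SE; edgeR adjusted p 0.711). Leaving out untreated replicate 2 gave -0.07, and leaving out untreated replicate 1 gave 0.63.

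Tyrobp (chromosome 7, 30413782 to 30417582) had 11.3 and 8.95 CPM untreated and 8.26 and 11.1 CPM with CCCP. The CCCP libraries differed here at least as much as the untreated ones, and the groups overlapped (log2 fold change -0.07, standard error 0.244, edgeR adjusted p 0.918). It was 0.12 without untreated replicate 1 and 0.13 without CCCP replicate 1, -0.21 without untreated replicate 2 and -0.30 without CCCP replicate 2. Fcer1g (chromosome 1, 171229572 to 171234349) had 8.46 and 4.62 CPM untreated and 6.59 and 6.23 CPM with CCCP. It was the member whose untreated libraries lay farthest apart, by 1.83-fold, and its log2 fold change was -0.03 ± 0.329 (SE; edgeR adjusted p 0.974). Leaving out untreated replicate 1 gave 0.48, and leaving out untreated replicate 2 gave -0.38.

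**Figure D4:**
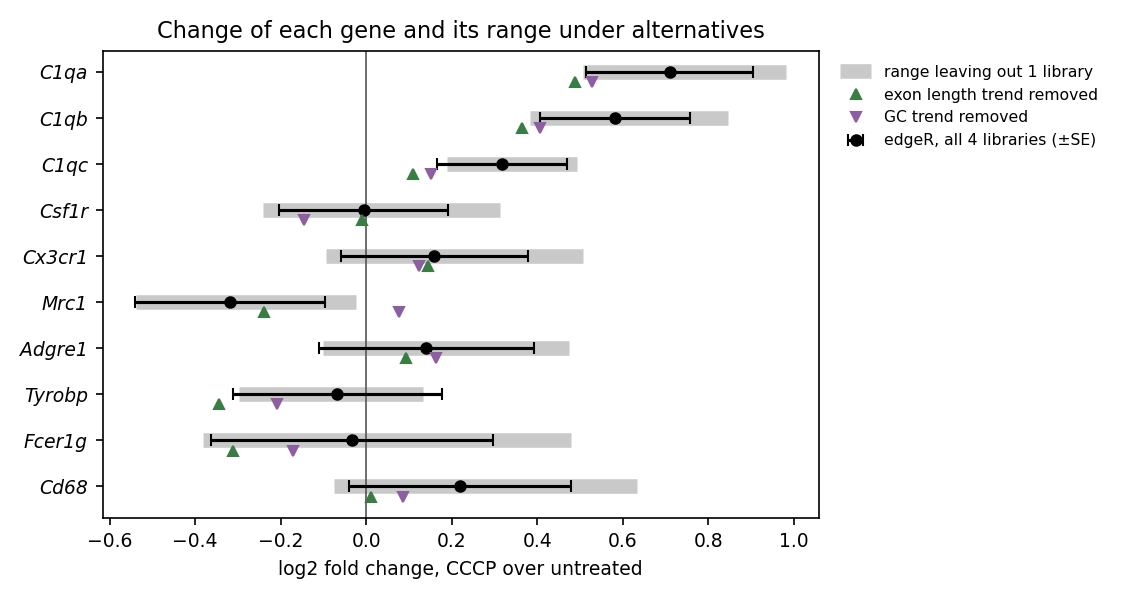
Log2 fold change (CCCP over untreated) of each gene from edgeR on all 4 libraries (black, ±SE), the range when 1 library is left out (grey bar), and the value with the exon length trend (green) or GC trend (purple) removed. The grey bars of C1qa, C1qb, C1qc and Mrc1 stay on 1 side of 0, those of the other 6 genes cross it, and the GC value of Mrc1, at 0.08, lies on the other side of 0 from its bar.

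Ordered by mean level per kilobase of exon over the 4 libraries, C1qb came first at 40.7 CPM per kilobase, then C1qc at 29.8, C1qa at 25.7, Tyrobp at 17.2, Cd68 at 12.9, Csf1r at 11.5, Fcer1g at 9.84, Cx3cr1 at 8.04, Adgre1 at 3.26 and Mrc1 at 2.94. The ranges over the 4 libraries of each gene and the next in this order overlapped, with the exception of Cx3cr1 (6.01 to 9.17 CPM per kilobase) and Adgre1 (2.48 to 3.72). Within libraries the order was steadier. The earlier gene was above the next in all 4 libraries for 6 of the 9 neighbouring pairs, in 3 libraries for C1qc over C1qa and for Cd68 over Csf1r, and in 2 libraries for Adgre1 over Mrc1.

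All 10 members were higher in untreated replicate 1 than in untreated replicate 2, by 1.24-fold (C1qc) to 1.83-fold (Fcer1g), while 49.9% of all genes tested were. Between the CCCP libraries, 6 of 10 members were higher in replicate 1, beside 47.8% of all genes, and the folds lay between 0.742 and 1.12. Untreated replicate 2 was the lowest library for 8 members. Of the 59 tested genes in 5 lists of other macrophage genes, 50 were higher in untreated replicate 1 than in replicate 2. The groups therefore differed in how closely their libraries agreed: the CPM sum of the 10 genes was 258.2 and 180.1 untreated, and 259.9 and 261.4 with CCCP.

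These 5 lists held 61 genes, and 32 of the 59 tested were higher and 27 lower in CCCP. Their median log2 fold change was 0.05, with 0 genes called by edgeR. Without the lysosomal list, 23 of 49 were higher and 26 lower, with a median of -0.0099. Both CCCP libraries were above both untreated libraries for 18 of the 59 and below them for 6, beside 24.0% and 24.8% of all genes. By the likeness rule, which measures the root mean square distance of log2 CPM deviations over the 4 libraries among 50 of these genes, those nearest to the mean pattern of the 10 members were Cyth4 (0.0568), a regulator of small GTPases in leukocytes, and the lysosomal proteases Lgmn (0.0808) and Ctsb (0.0852).

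Of the 10 transcription factors that shape macrophages, 7 were higher and 3 lower, with a median log2 fold change of 0.25, or 0.11 with the length trend removed. For 6 of them both CCCP libraries were above both untreated ones, beside 24.0% of all genes. Among the most abundant were Id3 (log2 fold change 0.37) and Maf (-0.17), which other cells of the explant express too. Spi1, the gene of PU.1, had 4.63 and 3.85 CPM untreated and 5.70 and 5.65 CPM with CCCP, which gave a log2 fold change of 0.42 (edgeR adjusted p 0.471), and was named after its values were seen. Of 13 tested partners of the adaptors, 8 were higher and 5 lower, with a median of 0.09, or -0.003 without CCCP replicate 2. Both CCCP libraries were above both untreated ones for 3 of them and below for 1, beside 24.0% and 24.8% of all genes. The kinases Syk (0.16) and Lyn (0.06) and the Fc receptor Fcgr3 (0.09) were the most abundant of them. Trem2, a lipid receptor that signals through TYROBP, had 8.32 and 5.58 CPM untreated and 9.86 and 9.17 CPM with CCCP (log2 fold change 0.45, edgeR adjusted p 0.461). This was the highest log2 fold change of the 13. Btk had the lowest, at -0.55 (edgeR adjusted p 0.396), with 4.99 and 4.17 CPM untreated and 3.03 and 3.22 CPM with CCCP. Trem2 and Btk were named after their values were seen.

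Of 11 tested genes of scavenging and uptake of dying cells, 3 were higher and 8 lower, with a median log2 fold change of -0.58. The 3 most abundant stood near 0, namely the receptor kinases Axl (0.05) and Mertk (-0.13) and the scavenger receptor Stab1 (0.02). Axl (124 to 160 CPM) and Stab1 (85.3 to 128.5 CPM) stood above every member in every library. Stab1 and Lyve1 are also among the endothelial and sinusoidal genes above, and which cells carried these transcripts was not tested. The median rested on untreated replicate 1, since it was 0.20 without that library and -0.93 without untreated replicate 2. Lysosomal genes that macrophages express strongly, and other cells as well, were higher in 9 of 10 cases, with a median of 0.31 and 8 above both untreated libraries, beside 24.0% of all genes. Among them Ctsd, a lysosomal protease, had 423.0 and 340.3 CPM untreated and 548.4 and 518.3 CPM with CCCP (log2 fold change 0.48, edgeR adjusted p 0.272), and Ctsb and Lamp1 had log2 fold changes of 0.28 and 0.39. Of the 15 other macrophage markers 5 were higher and 10 lower, with a median of -0.12, the most abundant being the pore-forming Mpeg1 (-0.15), the complement receptor C3ar1 (0.20) and the transglutaminase subunit F13a1 (-0.37). That median was 0.24 without untreated replicate 1 and 0.03 without CCCP replicate 1.

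**Figure D5:**
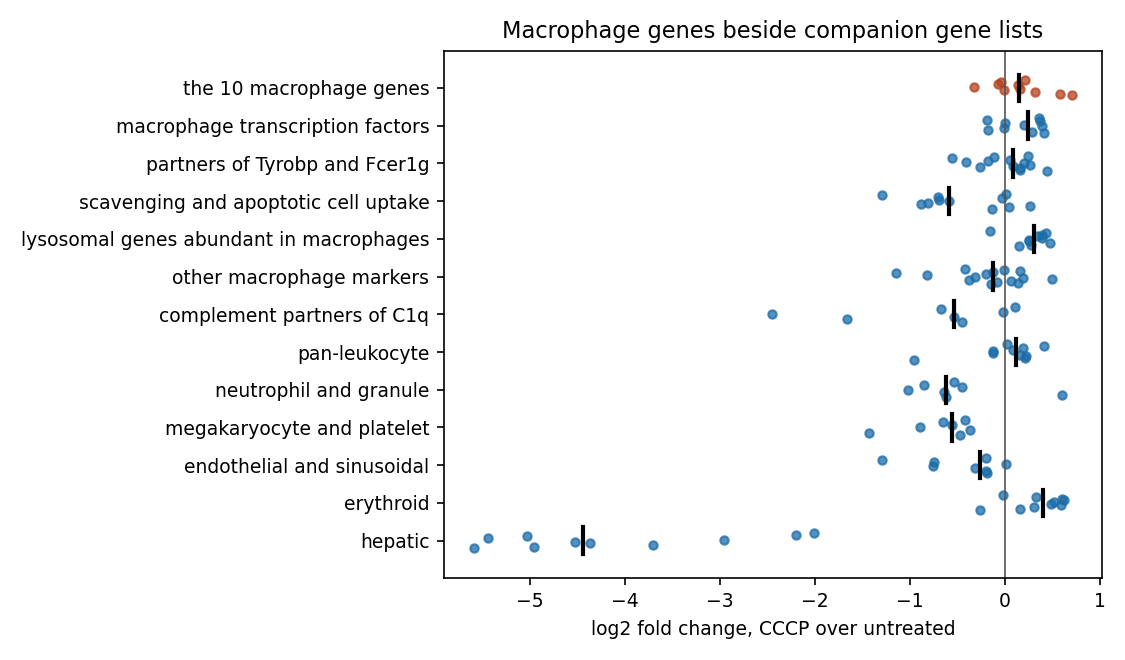
Log2 fold change (CCCP over untreated) of each tested gene, 1 point per gene, for the 10 macrophage genes (red) and 12 companion lists (blue), with the median of each list as a black bar. The macrophage genes have a median of 0.15 and the lysosomal genes 0.31. The complement genes read beside C1q (labelled complement partners of C1q) have -0.53, while the hepatic genes lie lowest at -4.44.

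Of 7 tested complement genes read beside C1q, components and regulators together, 6 were lower and 1 higher. For 4 of them both CCCP libraries lay under both untreated libraries, beside 24.8% of all genes. Their median log2 fold change was -0.53, with 0 called by edgeR, and it was -0.23 without untreated replicate 1 and -0.28 with the length trend removed. The most abundant, the regulator genes Cr1l (0.11) and Serping1 (-0.01), had overlapping groups. C1s1, which encodes a protease of the C1 complex, had 5.11 and 3.02 CPM untreated and 1.63 and 0.937 CPM with CCCP (log2 fold change -1.66, edgeR adjusted p 0.228), and C4b had 32 and 11 counts untreated and 3 and 4 counts with CCCP. Both were named after their values were seen. Unlike C1q, the secreted components among them are made largely by liver and stromal cells. All 10 hepatic marker genes were lower under CCCP without overlap of the groups, and their summed CPM was 1689 and 965 untreated and 53.3 and 106.3 with CCCP. The part of hepatic tissue or stromal cells in the levels of the complement genes was not tested, nor was that of hepatic tissue in the macrophage genes.

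Markers of other blood cells that could carry some of the 10 transcripts were read beside them. Of the 6 monocyte genes, Ly6c2 had 0 counts in every library, and Ccr2 and Chil3 had at most 3. Of the 3 tested, 1 was higher and 2 were lower, with a median log2 fold change of -0.84, or -0.48 with the length trend removed. Plac8 had 70 and 73 counts untreated and 117 and 101 with CCCP (log2 fold change 0.63, edgeR adjusted p 0.44). F10, a coagulation factor gene that liver expresses too, had 183 and 130 counts untreated and 11 and 24 with CCCP (-3.03, edgeR adjusted p 0.154). Vcan, a matrix proteoglycan gene of mesenchyme as well, had 895.0 and 628.5 CPM untreated and 403.6 and 449.2 CPM with CCCP (-0.84, edgeR adjusted p 0.206). The mast cell genes Fcer1a, Mcpt4, Mcpt8 and Tpsb2 had 0 counts in every library, and the summed CPM of the 7 mast cell and basophil genes was between 0.0412 and 0.165. The 10 neutrophil genes summed to 9.46 and 6.65 CPM untreated and 7.64 and 5.92 CPM with CCCP, with Ctsg at 0 in every library. Of the 7 tested, 1 was higher and 6 were lower, with a median log2 fold change of -0.62, or 0.29 without untreated replicate 1. The 6 dendritic cell genes summed to 33.0 and 32.7 CPM untreated and 30.3 and 27.8 CPM with CCCP, of which Zbtb46, also an endothelial gene, made up most. Of the 4 tested, 1 was higher and 3 lay below both untreated libraries, beside 24.8% of all genes, with a median of -0.63. The 8 lymphoid and NK genes summed to 1.96 and 1.02 CPM untreated and 1.67 and 0.716 CPM with CCCP. The 3 tested were lower with overlapping groups, with a median of -0.17, or 1.06 without untreated replicate 1. Pan-leukocyte genes were higher in 7 and lower in 3 of 10 cases, with a median log2 fold change of 0.12, or -0.07 without CCCP replicate 2 and -0.01 with the length trend removed. Ptprc (CD45), named after its values were seen, had 6.85 and 6.81 CPM untreated and 3.64 and 3.39 CPM with CCCP (log2 fold change -0.96, edgeR adjusted p 0.216). Of this list, Ptprc alone lay below both untreated libraries and 2 genes lay above them, beside 24.8% and 24.0% of all genes. All 7 megakaryocyte and platelet genes were lower, with a median of -0.56, or 0.03 without CCCP replicate 1, and 8 of 10 erythroid genes were higher, with a median of 0.41, or 0.14 without CCCP replicate 2 and 0.20 with the length trend removed. Of the 5 microglial genes 1 was higher and 4 were lower, with a median of -0.29, or 0.06 with the GC trend removed. P2ry12 had 1.72 and 1.60 CPM untreated and 1.15 and 1.57 CPM with CCCP (-0.29, edgeR adjusted p 0.739), and Siglech had 14 and 23 counts untreated and 6 and 10 with CCCP (-1.17, edgeR adjusted p 0.508). The groups of Gpr34 overlapped (-0.11). Tmem119 and Sall1 are expressed by mesenchymal and kidney precursors as well. Tmem119 had 60.7 and 52.9 CPM untreated and 86.7 and 82.5 CPM with CCCP (0.57, edgeR adjusted p 0.186), and Sall1 had 51.2 and 82.2 CPM untreated and 48.7 and 49.9 CPM with CCCP (-0.44, edgeR adjusted p 0.414).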

How the data were processed

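Poly(A) RNA of 4 explant libraries, 2 untreated and 2 with CCCP, was sequenced from directional libraries, per the labels' protocols. The values the authors deposited are raw counts per gene, made with featureCounts 2.0.3 on exons of the mm10 NCBI RefSeq annotation, with no strand option and each read of a pair counted singly, per the file headers. The submitters' processing notes also name HISAT2, SAMtools, FastQC and Subread. Groups came from the sample titles.

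From the counts, CPM with TMM scaling and edgeR 4.0.16 quasi-likelihood fits (R 4.3.3, two-sided, Benjamini-Hochberg over 19837 genes, threshold 0.05, filterByExpr with minimum count 10 and minimum total 15, group as the sole term) were computed. A standard error is the log2 fold change over the square root of F. The smallest two-sided p of an exact permutation test of 2 libraries against 2 is 0.333, so none was run. The fit was tested on simulated data with a coefficient of variation of 10% between libraries, below the 21.9% estimated for these data. It recovered 191 of 200 genes changed 2-fold there, which does not measure its power here. Alternatives were DESeq2 1.42.0, other library scalings, no low-count filter, leaving out each library, the replicate block, and removal of exon length or GC trends (lowess, span 0.3). GC content came from GENCODE transcripts, known for 90.4% of tested genes. The floor of 3 counts covers counting error alone.

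The rule for named genes took all members, every ligand, the 3 most abundant genes of each macrophage list and the 3 most alike in pattern; 1 gene it names is not reported here. Members and lists were chosen with earlier results of these data known.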

Additional observations from a re-analysis of the deposited data

How the results depend on the processing

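Under 13 alternatives, C1qa, C1qb and C1qc were higher in CCCP in all 39 values (C1qa 0.49 to 0.98, C1qb 0.36 to 0.85, C1qc 0.11 to 0.49 on the log2 scale). For these genes both CCCP libraries lay above both untreated ones, so leaving out 1 library could hardly turn the sign. The alternatives also drew on the same libraries, so this tally is no independent support. Their mean log2 fold change minus that of the other 7 members was 0.52 in the fit on all 4 libraries and 0.41 with the length trend removed, 0.41 with the replicate block and the length trend removed and 0.37 with the GC trend removed. Leaving out 1 library gave 0.42 to 0.59. The median log2 fold change of the members ran from -0.097 without untreated replicate 2 to 0.49 without untreated replicate 1. GC removal and the C1q comparison were chosen after seeing the data.

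The number of genes called was 594 in DESeq2 and 1107 without a filter on low counts, and leaving out 1 library gave 1 to 34. With the replicate block it was 2118, and with the replicate block and the length trend removed 1117. The number of members called was 2 without the filter and 2 with the replicate block (C1qa and C1qb in both), and 0 under the other 11 alternatives. The cause was not tested. Deviations from the group mean were correlated between libraries of the same number (0.36 across 19837 genes), a hint from the data that the labels do not explain. Depth followed the replicate number too. Replicate 1 had 48216849 (untreated) and 48827826 (CCCP) counted reads, and replicate 2 had 37360968 and 37579087. The part of depth in this correlation was not tested.

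Among the other members, Csf1r changed sign without the filter (0.0071), with the replicate block (0.018) and with the replicate block and length trend removed (0.012), Fcer1g with the replicate block (0.019) and Mrc1 with GC removed (0.078). When 1 library was left out, Csf1r ran from -0.24 to 0.31, Cx3cr1 from -0.093 to 0.51, Adgre1 from -0.10 to 0.47, Cd68 from -0.074 to 0.63, Tyrobp from -0.30 to 0.13 and Fcer1g from -0.38 to 0.48. No member changed sign with another library scaling. Without scaling factors, the median of all genes was -0.065 and no group mean of a summed CPM moved by more than 2.83%. Sums in single libraries could move more, as that of the members did in untreated replicate 1, from 258.2 to 268.3 CPM.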
